A study of Mus musculus with 6 samples.

Results

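The genes described here are 10 markers of the endothelium, the cell layer that lines blood vessels, and of the capillaries of the lung. They are Pecam1, Cdh5, Kdr, Flt1, Tek, Tie1, Car4, Ednrb, Gpihbp1 and Vwf. Each was chosen by its symbol, with earlier results of these data known. It was read from the probe set paired with that symbol alone, so that 10 of 22180 named genes were taken. Lung RNA came from male C57Bl6 mice, 3 given 10 mg/L CdCl2 in their drinking water (Cd-treated) and 3 given water with 0 mg/L (control). Water was given for 20 weeks from the age of 8 weeks, and lungs were taken at 28 weeks. Mice of both groups were caged in groups, and were anesthetized with ketamine/xylazine for airway resistance measurements before the lung was taken. RNA was amplified and hybridized to Affymetrix Mouse Gene ST 2.0 arrays, 1 array for each biological replicate. Each value is a log2 robust multiarray average (RMA) value, in which a step of 1 stands for a doubling of the signal.

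In the alveoli, gas crosses a thin barrier that endothelium shares with the flat epithelium of alveolar type 1 cells. The capillary bed holds a pair of endothelial types in the mouse: aerocytes, large cells that face the air and carry Car4 and Ednrb, and general capillary cells, which carry Gpihbp1 and serve as their progenitors. Survival and permeability of both are set by vascular endothelial growth factor (VEGF), largely made by the epithelium, and by angiopoietin acting on the receptor TEK.

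All 10 genes had a log2 difference (Cd-treated minus control) below 0, and none was past the threshold. The differences ran from -0.45 for Cdh5 to -0.16 for Kdr, with a median of -0.31, against -0.018 over all named genes. At an unadjusted p under 0.05 from limma, 0 of 10 were called in either direction, with 0.622% of all named genes called lower and 0.564% higher, 1.19% in all. No probe set of the array passed an adjusted p of 0.05 from limma (0.0% of 41345), the smallest adjusted p being 0.992. In a difference below 0 the 10 genes were not alone, since 52.8% of all named genes had one, and 81.5% of the 5673 genes whose mean lay above the upper quartile of the array. Every one of the 10 genes belonged to these brighter genes, whose median difference was -0.20. In none of the 10 did the groups fail to overlap, whereas 7.14% of all named genes had groups without overlap, 3.33% with the Cd-treated arrays lower and 3.81% with them higher.

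For 5 of the 10 genes the sign of the difference rested on 1 control array. Control replicate 3 gave the highest of the 6 values for 10 of 10 genes, and it did so for 34.3% of all named genes and for 67.3% of the brighter ones. Without it, 5 of the 10 differences were below 0, the median was -0.0062, and 50.6% of all named genes had a difference below 0. Over all 6 arrays the median was -0.080 after cyclic loess normalization and -0.12 with array weights, settings under which Tek had a difference above 0. The weighted fit rested mainly on control replicate 1 (weight 5.93) and Cd-treated replicate 2 (6.41), the other arrays having weights of 0.23 to 0.60. Control replicate 3 stood apart in genes of other tissues. For 8 genes of skeletal muscle the mean lay between 5.08 and 5.42 on the Cd-treated arrays, and was 8.59 on control replicate 3 and 5.05 and 5.27 on the other controls, with all 8 genes highest on control replicate 3. Over 7 genes of squamous epithelium the mean lay between 4.30 and 4.43 on the Cd-treated arrays, and was 6.20 on control replicate 3 and 4.18 and 4.21 on the other controls. Of the 7, 5 were highest on control replicate 3, while Krt6a and Sprr3 were highest on Cd-treated replicates 2 and 3. The part of these tissues in the endothelial values was not tested. The median of an array over its probe sets was 4.86 to 5.12, and pairs of arrays had a Pearson r of 0.82 to 0.971.

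**Figure D1:**
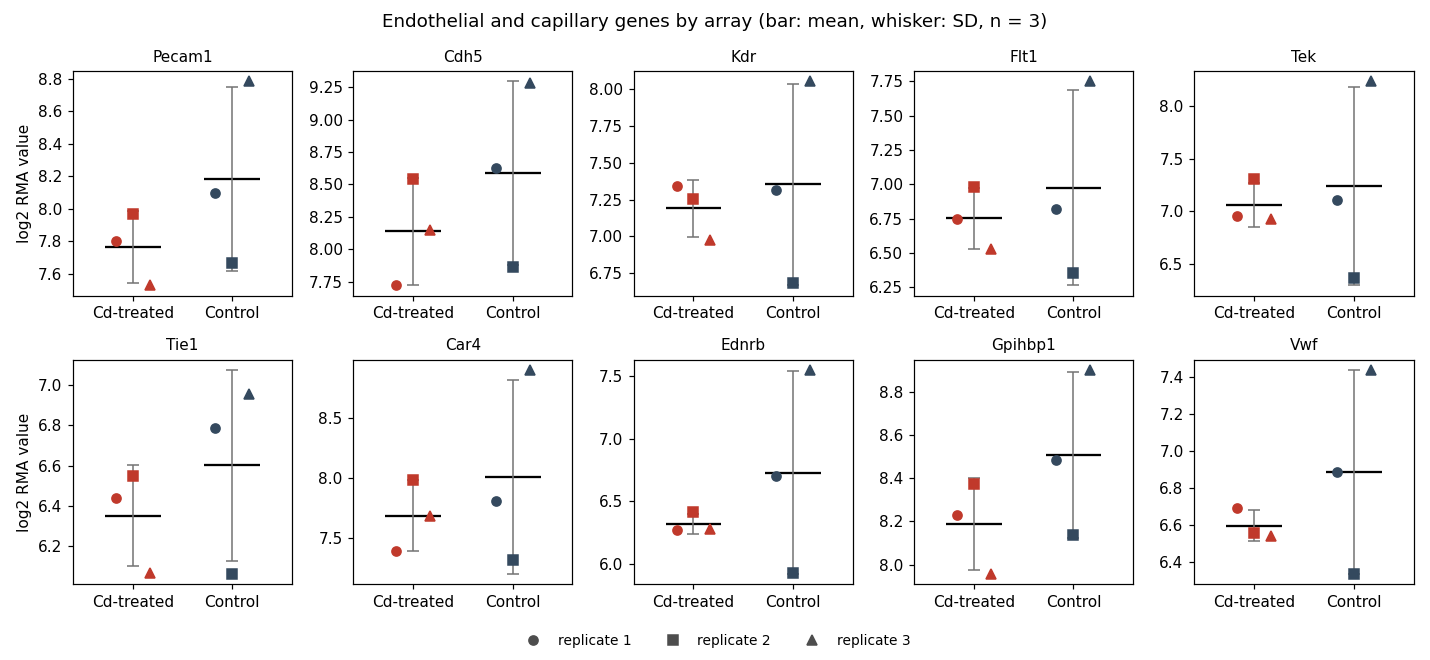
Log2 RMA values of the 10 endothelial and capillary genes (y axes, which differ between panels and do not start at 0) on 3 Cd-treated and 3 control arrays (x axis), with marker shapes for the replicates, a bar at the mean and a whisker for the SD (n = 3). Control replicate 3, the triangle on the right of each panel, is the highest point for all 10 genes, and the lowest point is control replicate 2 for 7 of them.

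Pecam1 and Cdh5 encode proteins of the contact between endothelial cells. PECAM1 (CD31) is an immunoglobulin-family adhesion molecule, also carried by platelets and leukocytes, and CDH5 (VE-cadherin) is the cadherin of endothelial adherens junctions. Pecam1 was 7.80, 7.97 and 7.53 on Cd-treated replicates 1 to 3, against 8.10, 7.67 and 8.79 on control replicates 1 to 3. Cd-treated replicate 3 was the lowest and control replicate 3 the highest, and the groups overlapped. The means were 7.76 ± 0.22 on the Cd-treated arrays and 8.18 ± 0.57 on the control arrays (log2 RMA values, SD, n = 3 each), and the log2 difference was -0.42 (95% interval -1.15 to 0.32, unadjusted p of 0.22 from limma). Cdh5 was 7.72, 8.54 and 8.15 on the Cd-treated arrays, against 8.62, 7.86 and 9.28 on the control arrays. Here Cd-treated replicate 1 was the lowest, and Cd-treated replicate 2 lay close to control replicate 1. The log2 difference was -0.45 (95% interval -1.38 to 0.48, unadjusted p of 0.29 from limma). Once control replicate 3 was left out, the differences of Pecam1 and Cdh5 were -0.12 and -0.10. For Pecam1 a part of the signal can come from blood cells, and the mean of 8 leukocyte genes ran from 6.41 to 7.07 on the Cd-treated and from 6.34 to 7.17 on the control arrays, with 0 called. Their part in Pecam1 was not tested.

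Kdr and Flt1 encode the main receptors of VEGF. KDR (VEGFR2) carries most of its signal in blood vessels, and FLT1 (VEGFR1) binds VEGF tightly but signals weakly, and also exists as a soluble form that traps the ligand. Kdr was 7.34, 7.26 and 6.97 on the Cd-treated arrays, against 7.32, 6.68 and 8.06 on the control arrays. All 3 Cd-treated values lay within the control values. Its log2 difference was -0.16 (95% interval -0.99 to 0.67, unadjusted p of 0.657 from limma). Flt1 was 6.75, 6.98 and 6.53 on the Cd-treated arrays, against 6.82, 6.36 and 7.75 on the control arrays. These Cd-treated values also lay within the control values, whose lowest and highest members were control replicates 2 and 3. The log2 difference of Flt1 was -0.22 (95% interval -1.08 to 0.64, unadjusted p of 0.558 from limma). With control replicate 3 left out, both differences were above 0, at 0.19 for Kdr and 0.17 for Flt1. The log2 ratio of Kdr to Flt1 on the same array was 0.60, 0.28 and 0.44 on the Cd-treated arrays, against 0.50, 0.33 and 0.31 on the control arrays. The receptor pair thus kept within a range of 0.32 over the 6 arrays, while Flt1 alone spanned 1.40.

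The 10 genes followed each other from array to array, and the DNA just before their starts was read from RefSeq promoter tables (build GRCm38.p6), which held 6 of the 10, namely Kdr, Flt1, Tek, Tie1, Car4 and Ednrb. In the 250 bases before each start, both strands were searched for AGGAAG and CGGAAG, hexamers bound by ETS factors, a family that includes the endothelial regulators ERG and FLI1, and for TGACGTCA, the cyclic AMP response element, and TATAAA, the core of the TATA box. An ETS hexamer was found in 3 of 6 (Flt1, Tie1 and Car4) and in 39.2% of all 32851 promoters of the tables, and the cyclic AMP response element in 1 of 6 (Flt1) and in 1.55% of all promoters. TATAAA was found in 1 of 6, again Flt1, 31 bases before the start, and in 12.4% of all promoters. Such a match is a description of letters and no evidence of binding. The stretches of Flt1 that hold the response element, 81 bases before the start, and the nearer ETS hexamer, 53 bases before it, lie on the minus strand at chr5:147726067-147726096 and chr5:147726047-147726076. They are shown 5′ to 3′ with the matches in capitals, because Flt1 was the only one of the 6 that held each kind of match.
Flt1, response element: ccctTGACGTCActggaaggaggtgccggg
Flt1, ETS hexamer: aggtgccggggtAGGAAGtgggctggggaa

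Tek and Tie1 encode the Tie receptors. TEK (TIE2) is the receptor of the angiopoietins and keeps vessels quiescent, and TIE1 is a partner that modulates TEK. Tek was 6.96, 7.31 and 6.93 on the Cd-treated arrays, against 7.11, 6.37 and 8.24 on the control arrays. It had the widest spread of the 10 genes, 1.87, all of it between control replicates 2 and 3, with the 3 Cd-treated arrays inside. The log2 difference was -0.17 (95% interval -1.24 to 0.89, unadjusted p of 0.71 from limma), and 0.33 without control replicate 3. Tie1 was 6.44, 6.55 and 6.07 on the Cd-treated arrays, against 6.79, 6.06 and 6.95 on the control arrays. It had the narrowest spread of the 10, 0.89, and its lowest values on Cd-treated replicate 3 and control replicate 2 were nearly equal. The log2 difference was -0.25 (95% interval -0.92 to 0.42, unadjusted p of 0.411 from limma). Tek spread more than Tie1, and the log2 ratio of Tek to Tie1 was 0.52, 0.76 and 0.86 on the Cd-treated arrays, against 0.32, 0.31 and 1.29 on the control arrays. This ratio was highest on control replicate 3, lay close together on the other 2 control arrays below all Cd-treated arrays, and overlapped between the groups.

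The 250 bases before the start of Tie1 (chr4:118489850-118490099, minus strand) held 2 ETS hexamers, 232 and 219 bases before the start, and no response element. Those of Car4 (chr11:84957504-84957753, plus strand) held 1 ETS hexamer, 200 bases before the start. Both are shown whole, 5′ to 3′ with the hexamers in capitals, as the 2 promoters besides that of Flt1 in which a hexamer was found, one of a gene used across endothelium and the other of a gene of aerocytes.
Tie1: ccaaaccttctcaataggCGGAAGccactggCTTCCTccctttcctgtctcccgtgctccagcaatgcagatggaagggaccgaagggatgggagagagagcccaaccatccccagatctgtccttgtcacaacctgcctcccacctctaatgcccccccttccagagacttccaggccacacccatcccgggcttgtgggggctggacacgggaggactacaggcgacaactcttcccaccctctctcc
Car4: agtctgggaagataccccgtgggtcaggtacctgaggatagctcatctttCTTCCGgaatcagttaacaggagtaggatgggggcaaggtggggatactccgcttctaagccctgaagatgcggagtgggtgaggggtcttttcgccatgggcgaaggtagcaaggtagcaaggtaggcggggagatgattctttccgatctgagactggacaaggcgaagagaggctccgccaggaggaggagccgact

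Car4 and Ednrb mark aerocytes. CAR4 is a carbonic anhydrase anchored to the cell surface that speeds the exchange of carbon dioxide and bicarbonate, and EDNRB is the endothelin B receptor, which clears endothelin from the lung circulation. Car4 was 7.39, 7.99 and 7.68 on the Cd-treated arrays, against 7.81, 7.31 and 8.91 on the control arrays. Its Cd-treated values lay within the control values, and the log2 difference was -0.32 (95% interval -1.30 to 0.65, unadjusted p of 0.456 from limma). Ednrb was 6.27, 6.41 and 6.28 on the Cd-treated arrays, against 6.70, 5.93 and 7.55 on the control arrays. The Cd-treated arrays were close to each other, with a range of 0.14, and the control arrays were not, with a range of 1.62. The log2 difference of Ednrb was -0.41 (95% interval -1.33 to 0.51, unadjusted p of 0.329 from limma). Ednrb was the gene whose call turned on 1 array, since its difference was -0.81 without control replicate 2 (unadjusted p of 0.036 from limma) and 0.0017 without control replicate 3. The difference of Car4 was 0.12 without control replicate 3. In the mouse Car4 is also made by alveolar macrophages, and the mean of 7 macrophage genes, Car4 among them, ran from 5.86 to 6.68 on the Cd-treated and from 6.38 to 7.11 on the control arrays. None of the 7 was called. Cd68 and Fabp4 had the smallest p, with differences of -0.55 and -1.57. In all, 5 of the 7 differences were below 0, and 2 were above it, Marco at 0.20 and Siglecf at 0.035. The part of macrophages in Car4 was not tested.

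Gpihbp1 marks general capillary cells and encodes the protein that carries lipoprotein lipase to the capillary lumen. It was 8.23, 8.37 and 7.96 on the Cd-treated arrays, against 8.48, 8.14 and 8.90 on the control arrays. Cd-treated replicate 3 was the lowest, and the other Cd-treated arrays lay between control replicates 2 and 1. The log2 difference was -0.32 (95% interval -0.91 to 0.27, unadjusted p of 0.242 from limma) and -0.12 without control replicate 3. The log2 ratio of Car4 to Gpihbp1, which sets an aerocyte gene against a general capillary gene, was -0.84, -0.39 and -0.28 on the Cd-treated arrays, against -0.68, -0.82 and 0.0056 on the control arrays. It averaged -0.50 on the Cd-treated and -0.50 on the control arrays, and was highest on control replicate 3. For Ednrb to Gpihbp1 the log2 ratio was -1.96, -1.96 and -1.68 on the Cd-treated arrays, against -1.78, -2.21 and -1.35 on the control arrays, again with the highest value on control replicate 3 and the lowest on control replicate 2.

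Vwf encodes von Willebrand factor, which tethers platelets and carries clotting factor VIII, and which is made in larger vessels more than in capillaries. It was 6.69, 6.56 and 6.54 on the Cd-treated arrays, against 6.89, 6.33 and 7.44 on the control arrays. The Cd-treated arrays lay within a range of 0.15 inside that of the control arrays. The log2 difference was -0.29 (95% interval -0.98 to 0.40, unadjusted p of 0.355 from limma), and -0.014 without control replicate 3. The platelet genes Pf4, Ppbp and Itga2b, which share with Vwf a source in megakaryocytes, had log2 differences of 0.24, 0.45 and 0.37, and none was called. The part of platelets in Vwf was not tested.

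**Figure D2:**
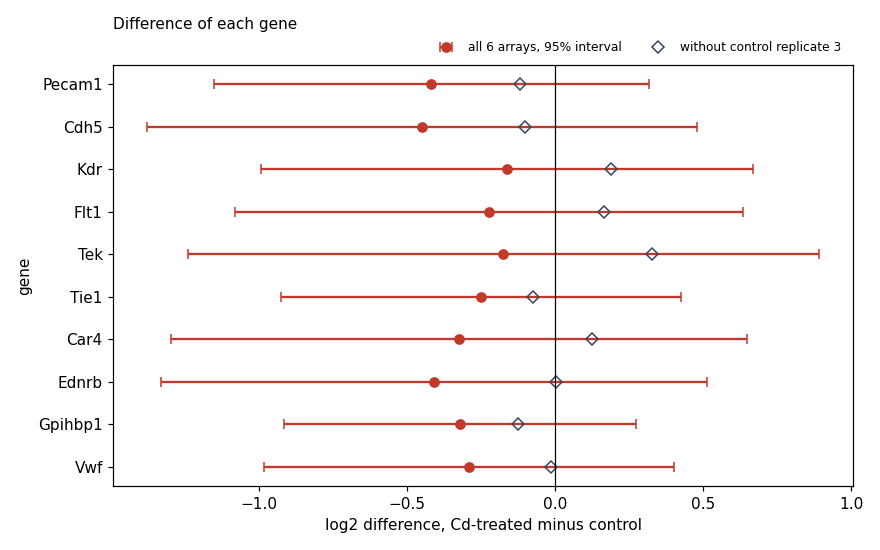
Log2 difference of each gene (x axis, Cd-treated minus control) for the 10 endothelial and capillary genes (y axis), with circles and 95% intervals from limma over all 6 arrays and open diamonds for the value without control replicate 3. Every interval spans 0, and the diamonds lie between -0.12 (Gpihbp1) and 0.33 (Tek).

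The observed spread of the 10 genes, which followed each other and were all highest on control replicate 3, differed between the groups. The SD of the control arrays exceeded that of the Cd-treated arrays for 10 of 10 genes, and for 55.9% of all named genes. For 7 of 10 the Cd-treated values all lay within those of the controls, and for 21.0% of all named genes. Neither share was computed for the brighter genes alone. The mean over the 10 genes was 7.16, 7.39 and 7.06 on the Cd-treated arrays, against 7.46, 6.87 and 8.19 on the control arrays. The highest and the lowest array of the study in these genes were thus both controls, and the Cd-treated arrays fell between them. The mean was 7.20 ± 0.17 on the Cd-treated arrays and 7.51 ± 0.66 on the control arrays (log2 RMA values, SD, n = 3 each). In whole lung RNA, a difference in the number of endothelial cells and one in the RNA of these genes per cell cannot be told apart.

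Across the 6 arrays the 45 pairs of these genes had a Pearson r from 0.77 to 0.99, with a median of 0.91. These are descriptions over arrays that share 1 outlying member. When control replicate 3 was left out, the r of the 45 pairs ran from 0.39 to 0.99, with a median of 0.74. Ratios within an array showed departures from the shared course, among them that of Tek to Tie1 on control replicate 3 given above, and those of Cdh5 on Cd-treated replicate 1. The log2 ratio of Cdh5 to Pecam1 was -0.079, 0.58 and 0.62 on the Cd-treated arrays, against 0.53, 0.19 and 0.49 on the control arrays. The log2 ratio of Kdr to Cdh5 was -0.38, -1.29 and -1.18 on the Cd-treated arrays, against -1.31, -1.18 and -1.22 on the control arrays. Cd-treated replicate 1 had the lowest value of the first ratio and the highest of the second, and the other Cd-treated arrays did not share this. Over the 6 arrays these ratios spanned 0.70 and 0.93, and that of Tek to Tie1 spanned 0.98.

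Genes outside all lists were ranked by their correlation over the 6 arrays with the mean of the 10, among 7781 genes above the lower quartile of intensity and the median of spread. The 5 most alike were Selenof, Alg5, Clic5, Casd1 and Selenot, with r of 0.999, 0.999, 0.999, 0.998 and 0.998. Selenof was 7.33, 7.53 and 7.21 on the Cd-treated arrays, against 7.64, 6.98 and 8.43 on the control arrays. Like the mean of the 10 endothelial genes, it was highest on control replicate 3 and lowest on control replicate 2. An r above 0.9 was shared by 1101 of the 7781 genes (14.1%), so that the course over the arrays was not one of endothelial genes alone.

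Wider lists of vascular genes were read in the same way. Of 22 other genes used across endothelium, 0 were called, 22 had a difference below 0, and 22 were highest on control replicate 3. Their median was -0.35, and -0.022 without that array, when 15 of 22 were below 0. The smallest p belonged to Eng, endoglin, a co-receptor for BMP9, at -0.71 and to S1pr1, the receptor of sphingosine 1-phosphate, at -0.57 (unadjusted p of 0.105 and 0.116 from limma). Of 19 transcription factors of endothelium, 0 were called, and the median was -0.18 and 0.021 without control replicate 3. Foxf1, needed for the growth of lung capillaries, was 7.20, 7.19 and 7.21 on the Cd-treated arrays, against 7.45, 7.37 and 8.47 on the control arrays. The groups of Foxf1 did not overlap, and its log2 difference was -0.57 (unadjusted p of 0.113 from limma). Prox1, the lymphatic regulator, had -0.52 (unadjusted p of 0.0728 from limma), and was a dim probe set, below the lower quartile of each array but control replicate 3. Over the 13 vascular lists together, without the 10 genes, 125 genes were measured. Of these, 3 were called lower and 0 higher, against 0.622% and 0.564% of all named genes. The median of the 125 genes was -0.23, or -0.017 without control replicate 3.

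Among the ligands and partners of the receptors, 0 of 8 VEGF ligands and co-receptors were called. Vegfa, the ligand of KDR and FLT1, was 9.22, 8.69 and 8.15 on the Cd-treated arrays, against 8.78, 8.69 and 8.94 on the control arrays. Its highest value was on Cd-treated replicate 1 and its lowest on Cd-treated replicate 3, which differs from the order of its receptors. The smallest p in that list were those of Vegfd, a ligand made in lung mesenchyme, at -0.50, and Nrp2, a co-receptor, at -0.18 (unadjusted p of 0.185 and 0.426 from limma). Of 6 angiopoietins and partners 0 were called. Ptprb, the phosphatase that restrains TEK, had -0.50 and Svep1, a matrix protein reported to bind TIE1, had -0.30, while Angpt1 and Angpt2 had -0.33 and -0.23. Of 5 genes of endothelin, the ligand of EDNRB, 0 were called. Edn1, endothelin 1, was 6.06, 5.89 and 6.20 on the Cd-treated arrays, against 6.13, 6.30 and 7.36 on the control arrays, and the high value of control replicate 3 made up most of its difference of -0.55, which was -0.17 without it. Ece1, which cleaves its precursor, had -0.43.

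Lists of vessel types showed no call. Of 7 other aerocyte genes and 9 other general capillary genes, 0 were called, with medians of -0.066 and -0.38. These medians were -0.011 and 0.0085 without control replicate 3, with 4 of 7 and 4 of 9 genes below 0. Fibin and Kitl had the smallest p among the aerocyte genes, at -0.34 and -0.31, and Plvap, of fenestral diaphragms, among the general capillary genes, at -0.62. Plvap was 6.13, 6.76 and 6.35 on the Cd-treated arrays, against 7.21, 6.13 and 7.77 on the control arrays, so that control replicate 2 equalled the lowest Cd-treated array. Of 10 arterial, 7 venous and 7 lymphatic genes, 0 were called, and the medians were -0.18, -0.075 and -0.078, against 0.021, 0.071 and -0.0033 without control replicate 3. Efnb2 and Fbln5 had the smallest p of the arterial genes, with differences of -0.52 and -0.51, and of -0.27 and -0.037 without that array. In the venous list Slc6a2, the noradrenaline transporter, had 0.22 and Ephb4 had -0.21, and in the lymphatic list Lyve1, a hyaluronan receptor, had -0.58. Of 14 Notch and BMP genes 0 were called, and Acvrl1 and Bmp6 had -0.36 and -0.39.

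Called genes were found in the lists of clotting and of activated endothelium. The shares over all named genes, for these and the lists below, were 0.622% called lower and 0.564% called higher. Without control replicate 3, 0.757% of all named genes were called in either direction. Of 10 clotting genes 1 was lower and 0 were higher. Plat, tissue plasminogen activator, which starts fibrinolysis, was 5.41, 5.82 and 5.58 on the Cd-treated arrays, against 6.12, 6.15 and 6.47 on the control arrays. The groups did not overlap, and the log2 difference was -0.64 (95% interval -1.13 to -0.16, unadjusted p of 0.0167 from limma, adjusted p = 0.992). Plat stayed past the threshold when control replicate 3 was left out, at -0.53 with an unadjusted p of 0.0422. Procr, the protein C receptor, was the only one of the 10 clotting genes to lie above all controls on every Cd-treated array, at 6.79, 6.49 and 6.45, against 6.09, 6.25 and 6.30, and was not past the threshold (log2 difference 0.36, unadjusted p of 0.0968 by limma).

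Activated endothelium was read from 11 genes, of which 2 were lower and 0 higher. The median of the list was -0.23, and -0.22 without control replicate 3. Its mean ran from 5.51 to 5.63 on the Cd-treated and from 5.68 to 5.97 on the control arrays. Vcam1, a leukocyte adhesion molecule, was 5.75, 5.99 and 5.86 on the Cd-treated arrays, against 6.28, 6.33 and 7.25 on the control arrays. Its groups did not overlap, and the log2 difference was -0.75 (95% interval -1.44 to -0.056, unadjusted p of 0.0377 from limma, adjusted p = 0.992). Leaving out control replicate 3 gave a difference of -0.43, no longer past the threshold, with an unadjusted p of 0.06. Plaur, the urokinase receptor, which myeloid cells and airway epithelium also make, was 6.73, 6.09 and 5.48 on the Cd-treated arrays, against 6.90, 6.76 and 7.04 on the control arrays, with a log2 difference of -0.80 (unadjusted p of 0.0425 from limma). Its Cd-treated values spread over 1.25, and without control replicate 3 its unadjusted p was 0.0964. The selectins Sele and Selp and the adhesion molecule Icam1 had 0.092, 0.10 and -0.38 and were not called. Cxcl1, a neutrophil chemokine, was 4.14, 4.27 and 4.29 on the Cd-treated arrays, against 4.65, 5.82 and 4.55 on the control arrays. Its groups did not overlap and its difference of -0.77 was not past the threshold (unadjusted p of 0.0619 from limma). Cxcl1 was the only gene of that list called once control replicate 3 was left out, at -1.002 with an unadjusted p of 0.0291.

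Partners of GPIHBP1 and relatives of CAR4 held 1 called gene each. Lpl, lipoprotein lipase, the enzyme that GPIHBP1 carries and that muscle, fat and macrophages make, was 6.43, 6.92 and 7.02 on the Cd-treated arrays, against 7.84, 6.99 and 7.93 on the control arrays. Its groups overlapped by the value of control replicate 2, and the log2 difference was -0.80 (95% interval -1.53 to -0.064, unadjusted p of 0.0369 from limma, adjusted p = 0.992). Lpl was not past the threshold once control replicate 3 was left out, at -0.63 with an unadjusted p of 0.103. The other 10 genes of lipolysis were not called, among them Lipg, endothelial lipase, at -0.70, and Cd36, the fatty acid transporter, at -0.25. Car3, a carbonic anhydrase of muscle and fat, was 5.73, 8.02 and 7.53 on the Cd-treated arrays, against 9.81, 7.62 and 9.26 on the control arrays, with a log2 difference of -1.80 (unadjusted p of 0.0445 from limma). It overlapped between the groups and had an unadjusted p of 0.108 without control replicate 3. The mean of 7 fat cell genes ran from 4.93 to 5.20 on the Cd-treated arrays and was 5.58, 4.99 and 5.16 on the control arrays. On control replicate 1, the array on which Car3 was highest, 4 of the 7 were highest (Adipoq, Cidec, Lep and Retn), and 3 were not (Plin1, Ucp1 and Cidea). The part of fat tissue in Car3 was not tested. The other 12 carbonic anhydrases measured were not called.

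**Figure D3:**
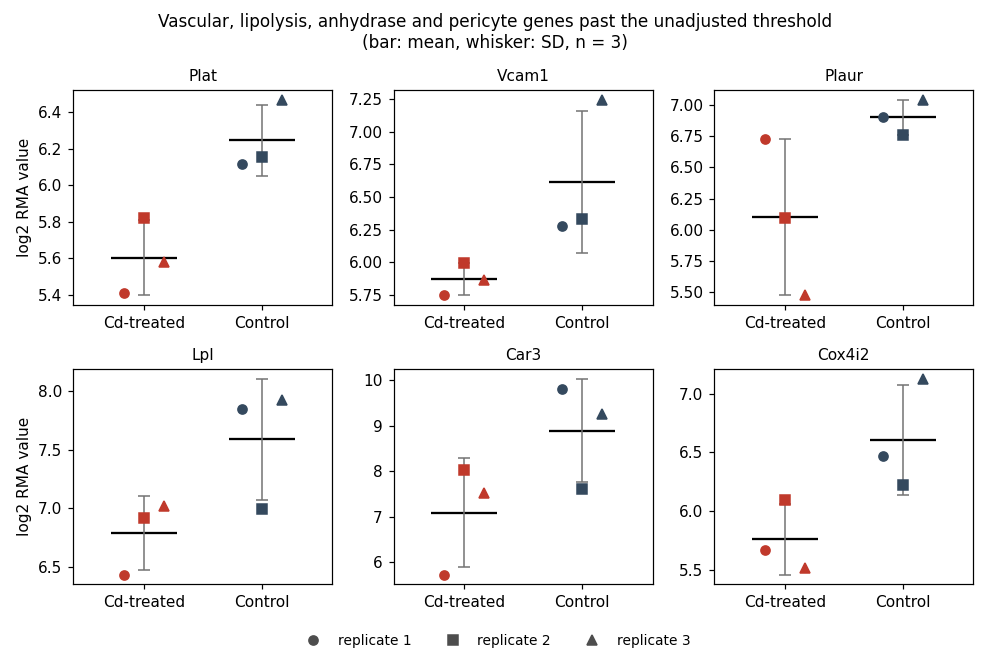
Log2 RMA values (y axes, which differ between panels and do not start at 0) of the 6 genes of the vascular, lipolysis, carbonic anhydrase and pericyte lists at an unadjusted p under 0.05 from limma, on 3 Cd-treated and 3 control arrays (x axis), with a bar at the mean and a whisker for the SD (n = 3). All 6 were lower in the Cd-treated lungs, and for Lpl and Car3 control replicate 2 lay among the Cd-treated arrays.

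Cells that lie beside the capillaries were compared with the endothelial genes. Pericytes, which wrap capillaries, had 1 of 8 genes lower and 0 higher. Cox4i2, a cytochrome oxidase subunit of pericytes and smooth muscle, was 5.67, 6.10 and 5.52 on the Cd-treated arrays, against 6.47, 6.22 and 7.12 on the control arrays, with a log2 difference of -0.84 (unadjusted p of 0.0236 from limma), and -0.58 without control replicate 3 (unadjusted p of 0.0543). Rgs5, another pericyte gene, had -0.78 and was not called. Of 8 alveolar type 1 genes 0 were called, and their mean ran from 7.75 to 7.97 on the Cd-treated and from 7.53 to 8.61 on the control arrays. Of 8 alveolar type 2 genes 0 were called, and their mean ran from 8.77 to 9.13 on the Cd-treated and from 8.67 to 9.75 on the control arrays. Control replicates 3 and 2 were the highest and the lowest array in the means of both lists, as in the mean of the 10 endothelial genes. The log2 median difference was -0.28 for the alveolar type 1 genes, -0.22 for the alveolar type 2 genes and -0.16 for the pericyte genes, against -0.31 for the 10 endothelial genes, and no test sets these apart. Once control replicate 3 was left out, the medians of these 3 lists were -0.012, 0.029 and 0.039. The smallest p were those of Pdpn and Aqp5 among the alveolar type 1 genes, at -0.43 and -0.26, and of Sftpd and Lamp3 among the alveolar type 2 genes, at -0.31 and -0.32.

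**Figure D4:**
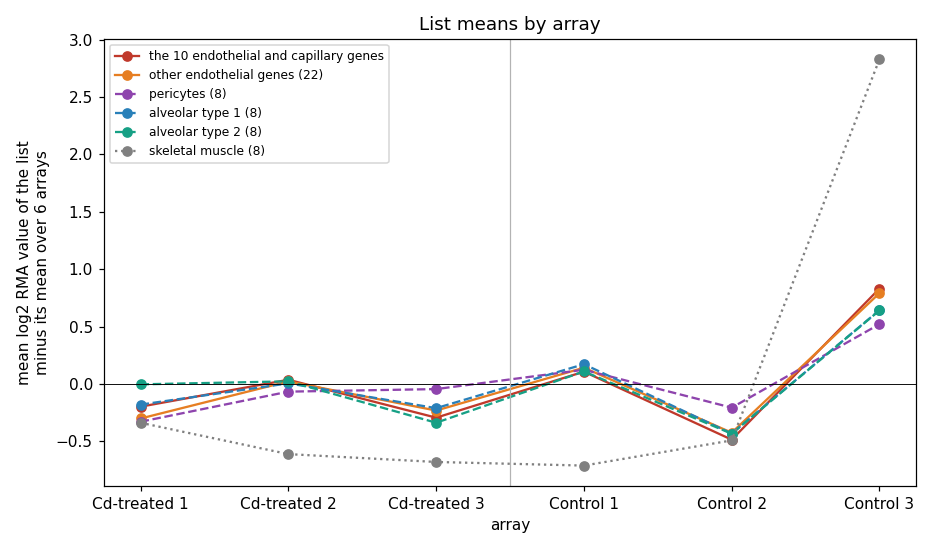
Mean log2 RMA value of each list minus its own mean over the 6 arrays (y axis) on each array (x axis), for the 10 endothelial and capillary genes, 22 other endothelial genes and lists of pericytes, alveolar type 1, alveolar type 2 and skeletal muscle genes. The endothelial and alveolar lists are highest on control replicate 3 and lowest on control replicate 2. The pericyte list is also highest on control replicate 3, but lowest on Cd-treated replicate 1. The skeletal muscle list departs from the other arrays on control replicate 3 alone.

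Other tissue around vessels and airways held more called genes. Large pulmonary veins of the mouse are sheathed by cardiomyocytes, and of 8 genes of these cells 4 were lower and 0 higher. Their mean ran from 6.97 to 8.08 on the Cd-treated and from 8.33 to 9.04 on the control arrays, without overlap. Sln, sarcolipin, which restrains the calcium pump, was 5.61, 7.53 and 6.12 on the Cd-treated arrays, against 8.77, 7.99 and 9.37 on the control arrays, a log2 difference of -2.29 (unadjusted p of 0.00432 from limma, adjusted p = 0.992). The other 3 were Myl7 and Myl4, atrial myosin light chains, and Nppa, atrial natriuretic peptide, at -1.16, -0.85 and -1.96. The list's median was -0.90, and -0.87 without control replicate 3, while that of the 10 endothelial genes was -0.31 and -0.0062. Without that array 5 of 8 were called (Sln, Myl7, Nppa, Myh6 and Tnnt2, and not Myl4), against 0.757% of all named genes. Of 6 smooth muscle genes 1 was lower, Des, desmin, at -0.86, and the means of the list did not overlap between the groups. Des stayed called without control replicate 3, at -0.69 (unadjusted p of 0.0335 from limma). The median of the smooth muscle list was -0.48, and -0.49 without that array. Of 8 fibroblast genes 3 were lower, namely Dcn, decorin, at -0.89, and the collagen genes Col3a1 and Col1a2 at -0.75 and -0.70. Leaving out control replicate 3 left 1 of the 3 called, Dcn, and took the median of the fibroblast list to -0.19, against -0.53 over all 6 arrays. Airway epithelium had 3 of 7 genes lower, the secreted proteins Bpifb1, Bpifa1 and Scgb3a1, at -3.05, -3.57 and -2.37, of which 1, Bpifb1, stayed past the threshold without control replicate 3. All 3 were low on Cd-treated replicates 1 and 3, and on Cd-treated replicate 2 Bpifa1 and Scgb3a1 lay among the controls. The other 4 airway genes, Scgb1a1, Foxj1, Cyp2f2 and Scgb3a2, had differences of 0.093, 0.084, -0.16 and -0.19 and were not called. Leukocytes and fat cells had 0 of 8 and 0 of 7 genes called. How much tissue of each kind the lung pieces held was not measured, and its part in the endothelial values was not tested.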

How the data were processed

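Lung RNA of 3 Cd-treated and 3 control mice was measured, and GEO's labels call the arrays biological replicates. The deposited values are log2 RMA values, made by the authors through oligo in R, which corrects background, sets arrays to equal quantiles and summarizes each probe set. RMA and limma are the tools in the submitters' processing notes, and versions and the genome build are not given in the sources used here. Since quartiles still differed between arrays, other normalizations were tried.

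Of 41345 probe sets, 23521 were paired with 1 gene symbol in the array annotation and gave 22180 genes, each read from the probe set with the highest mean. Each of the 10 genes had 1 probe set. All 245 genes of the lists matched the reference table by gene number and symbol. Tests used R 4.3.3 and limma 3.58.1, with the group as its term (moderated by 3.06 prior degrees of freedom), on all probe sets, with Benjamini-Hochberg adjustment. The call rule was an unadjusted p under 0.05. An exact permutation test of 3 against 3 arrays cannot go below 0.1 and was above it for each of the 10 genes, with two-sided p of 0.3 to 0.8. The number of arrays limits the precision.

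The 10 genes and the 28 related lists were chosen with earlier results of these data known. Genes named were the 10, those called in a list or otherwise the 2 with the smallest p, and the 5 most like the mean of the 10. Ratios and any other gene named were picked with their values in view. Simulated arrays with known changes served to test the fit. Results were recomputed with array weights, cyclic loess, median centring, a repeated quantile normalization, a plain t-test, a robust trended prior, replicate number as a block, dim probe sets removed, probe sets averaged per gene, and each array left out. Readings without control replicate 3 for the lists and the count of differences below 0 were added after the data were examined.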

Additional observations from a re-analysis of the deposited data

How the results depend on the processing

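The 10 genes gave 0 calls at an unadjusted p under 0.05 under each alternative over 6 arrays. Leaving out single arrays gave 0 to 1 calls (Ednrb without control replicate 2) and 0 to 6 genes without overlap between the groups, 6 without control replicate 2. Groups separate more easily with an array left out. The share of all named genes without overlap was computed over 6 arrays only (7.14%), so the 6 genes have no share to be read against. The number of genes with a difference below 0 was 5 to 10, with 5 without control replicate 3, when Kdr, Flt1, Tek, Car4 and Ednrb had differences of 0.19, 0.17, 0.33, 0.12 and 0.0017, against -0.50, -0.53, -0.61, -0.67 and -0.81 without control replicate 2. The median difference ran from -0.59 without control replicate 2 to -0.0062 without control replicate 3. It was -0.080 with cyclic loess and -0.12 with array weights, which left 8 and 7 of 10 differences below 0. The array weights rested mainly on control replicate 1 and Cd-treated replicate 2. With cyclic loess the differences of Kdr and Tek were 0.070 and 0.050, and with array weights those of Flt1, Tek and Car4 were 0.13, 0.18 and 0.13. All other differences of the 10 genes stayed below 0 under each alternative.

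Deviations of same-numbered arrays from their group means correlated at -0.49, 0.071 and -0.51. The deviations of 3 arrays sum to 0 in each group, so these values cannot decide whether replicate numbers pair the arrays. With the replicate block, 0 of 10 genes were called, with differences as before from -0.45 to -0.16 and unadjusted p of 0.302 to 0.722 from limma. Averaging probe sets per gene changed nothing, since each of the 10 had 1. The 95% intervals, as wide as -1.24 to 0.89 for Tek, show which differences 3 arrays a group cannot separate from 0.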
